A study of Mus musculus with 12 samples.

Results

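Colonic CD11b+ dendritic cells (DC) lacking the transcription factor Runx3 were compared with their WT counterparts across all genes on the array. The members were chosen by their labels alone: 3 samples of Runx3Δ and 2 of WT CD11b+ DC, 5 of the 12 samples of the series. The other 7 samples, of resident macrophages (RM), entered the shared estimate of the spread and served for a test of whether a difference was particular to CD11b+ DC. Each sample was RNA of sorted cells pooled from 3 to 4 mice of both sexes, 6 to 8 weeks old, on a C57Bl/6 background. The Runx3Δ samples, labelled cKO with the genotype Runx3 -/-, came from mice with floxed Runx3 alleles and a CD11c-Cre transgene. That transgene is active in DC and also in macrophages, so both kinds of cell lost Runx3 in these mice and the CD11b+ DC developed beside Runx3-deficient RM. The WT samples, with the genotype Runx3 +/+, came from mice that the study calls littermates. Among the CD11b+ DC pools, however, only litter 3 holds both genotypes, so litter and genotype are largely confounded. All were sorted from the lamina propria of the cecum as CD45+ CD11c+ MHCII+ CD11b+ cells that lack Ly6C and the macrophage antigen encoded by Adgre1, a gate that holds CD103+ as well as CD103- cells. The question was which genes of CD11b+ DC differ without Runx3 at an age when few of the mice have colitis.

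Runx3 belongs to the RUNX family, proteins that bind DNA through a Runt domain together with the partner Cbfb and either raise or lower transcription of nearby genes. CD11b+ DC of the intestine, also called cDC2, take up antigen in the lamina propria, travel to lymph nodes and there prime T cells or induce regulatory T cells (Treg). Their development rests on Irf4 and on Notch2 signaling, and TGF-β acts on their differentiation in the gut.

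The sorted cells carried the genes of their gate and of conventional DC. All values are log2 levels on the array. Itgax, which encodes CD11c, was at 11.15 and 11.12 in WT and 11.34, 11.45 and 11.56 in Runx3Δ. Itgam, which encodes CD11b, was at 11.39 and 11.13 in WT and 10.92, 11.10 and 11.11 in Runx3Δ. The MHC class II gene H2-Ab1 stood between 13.31 and 13.48 in the 5 samples. Flt3, the growth factor receptor of DC, was at 10.09 and 10.21 in WT and 10.14, 10.14 and 9.99 in Runx3Δ, against a mean of 6.75 in WT RM. Adgre1, whose product the gate excludes, was at 9.81 and 9.65 in WT and 9.16, 9.57 and 9.48 in Runx3Δ, against a mean of 11.86 in WT RM. The defining DC markers were thus present in every sample, but macrophage genes were well above the array's median too, with C1qa at 10.45 and 10.38 in WT and 10.30, 10.30 and 10.79 in Runx3Δ. In such bulk samples fewer cells of a type and less RNA per cell cannot be told apart.

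Markers of other cell types differed between the groups. The mean level of the 20 macrophage markers measured was 8.54 and 8.42 in WT and 8.02, 8.15 and 8.36 in Runx3Δ. That of the 8 monocyte markers was 9.03 and 8.68 in WT and 7.78, 8.39 and 8.37 in Runx3Δ. In both lists each Runx3Δ sample was below each WT sample. Among the macrophage markers, Fcrls, Mrc1 and Ms4a7 were the 3 of 20 that met the study's thresholds, a difference of at least 1.5-fold with an unadjusted p of at most 0.05. All 3 were lower, where 1.20% of all genes were lower and 0.547% higher at these thresholds. The mean of the other 17 macrophage markers overlapped, at 8.32 and 8.26 in WT and 8.11, 8.12 and 8.34 in Runx3Δ. Leaving out members called on these same values narrows a gap by construction. Such an overlap, here and in the lists below, therefore cannot show that the other markers were unchanged. Of the monocyte markers F13a1, Fn1 and Vcan were lower, and the mean of the other 5 overlapped, at 8.76 and 8.63 in WT and 8.55, 8.94 and 8.80 in Runx3Δ. In 6 of the 20 macrophage markers, Adgre1 among them, each Runx3Δ sample was below both WT samples, and in 0 above. Over all genes the shares were 13.8% below and 13.7% above. The defining genes C1qa, C1qb, C1qc, Cd68 and Csf1r overlapped between the groups. The 15 stromal markers had means of 6.34 and 5.86 in WT and 5.8, 5.5 and 5.72 in Runx3Δ, so WT replicate 1 stood apart from the other samples. The stromal proteoglycan Dcn was at 9.06 and 7.66 in WT and 7.40, 6.80 and 7.31 in Runx3Δ. At the thresholds 2 stromal markers were lower, 0 without WT replicate 1 and 9 without WT replicate 2. The 18 epithelial markers had means of 5.27 and 5.55 in WT and 5.96, 5.65 and 6.05 in Runx3Δ, with 4 of 18 higher at the study's thresholds (Cdh17, Car1, Pigr and Krt8) and 0 lower. The mean of the other 14 overlapped, at 4.96 and 5.25 in WT and 5.35, 5.10 and 5.49 in Runx3Δ. The median difference of the 18 was 0.34, but 0.04 with 3 higher when the litter was taken as a block, and without WT replicate 1 there were 3 higher and 1 lower. Of the 18 epithelial markers 16 had a difference above 0, where 52.8% of all genes did. In 8 each Runx3Δ sample was above both WT samples and in 1 below, against 13.7% and 13.8% of all genes. Epcam, which defines epithelium, overlapped between the groups at 5.92 and 6.73 in WT and 6.43, 6.40 and 6.50 in Runx3Δ. The goblet cell mucin Muc2 was highest in a WT sample, at 5.03 and 6.99 in WT and 5.44, 4.39 and 5.37 in Runx3Δ. Plasmacytoid DC markers had means of 7.07 and 6.96 in WT and 7.57, 7.22 and 7.33 in Runx3Δ. Markers of cDC1 overlapped, at 8.6 and 8.51 in WT and 8.56, 8.47 and 8.65 in Runx3Δ. The part of these cell types in the differences below was not tested, and their values are given beside the genes they move with.

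**Figure D1:**
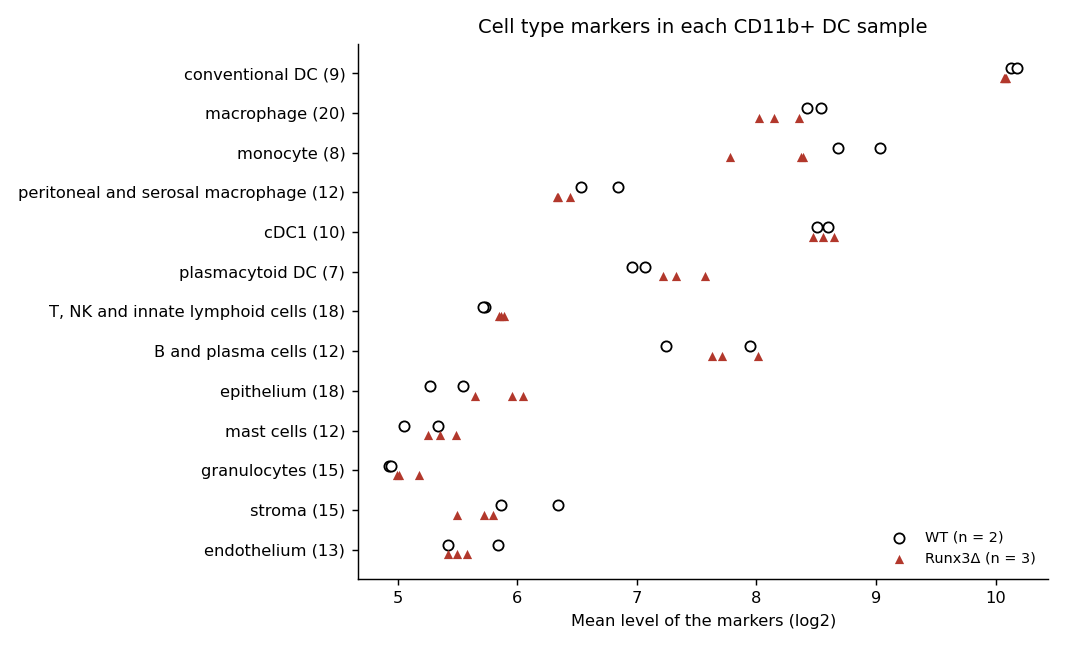
Mean log2 level of each cell type's markers (number measured in brackets) in the 2 WT samples (open circles) and the 3 Runx3Δ samples (triangles) of CD11b+ DC. Macrophage, monocyte, peritoneal macrophage and stromal means were lower in each Runx3Δ sample than in each WT sample, epithelial and plasmacytoid DC means were higher, and cDC1 means overlapped. The means include members at the study's thresholds, without which the macrophage, monocyte, peritoneal and epithelial means overlapped. Leaving out those members narrows a gap by construction.

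Replicates correlated over all rows at 0.989 within WT and at 0.986 to 0.991 within Runx3Δ, and samples of different genotype at 0.985 to 0.990. The first principal component of the 5 samples held 34.2% of the variance, with scores of -38.5 and -14.8 in WT and of 32.4, 3.4 and 17.6 in Runx3Δ. WT and Runx3Δ were separate on it, but the 2 WT samples lay farther from each other than WT replicate 2 lay from Runx3Δ replicate 2, and these latter 2 samples share a litter number.

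Runx3Δ replicate 1 stood apart in a class II gene, H2-Ea, which was singled out after its values were seen. The C57Bl/6 strain named in the labels is known not to transcribe this gene, because its promoter is deleted there. H2-Ea was at 4.20 and 4.36 in WT and 9.84, 4.72 and 4.41 in Runx3Δ, high in replicate 1 alone. In RM it was at 7.79 in WT replicate 1 and 9.08 in Runx3Δ replicate 1 and between 4.14 and 4.31 in the other five samples. The 3 high samples are those that carry litter number 1, and among CD11b+ DC no WT sample came from that litter. The part of the litter in the differences was not tested, so results are also given without Runx3Δ replicate 1. Of the 30 largest differences described below, all 30 kept their sign without it and 26 still met the study's thresholds, the exceptions being Cxcl13, Cxcr2, Lypd8 and Retnla.

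Few differences stood out once all rows were tested together. With limma and Benjamini-Hochberg adjustment, 0 of 35556 rows (0%) had an adjusted p under 0.05, and the smallest was 0.182. At an unadjusted p under 0.05 there were 2395 rows, 999 higher and 1396 lower in Runx3Δ. The study's thresholds were met by 225 rows higher and 533 lower. The ANOVA of its methods, run again here on the 2 CD11b+ DC groups, called 432 rows in all and also left 0 after adjustment. All of these are counts of rows from the deposited values and not the study's own counts of genes. Counted over genes with a row of their own, 109 of 19938 were higher (0.547%) and 240 lower (1.20%). Of these, 106 and 231 had no overlap between the WT and Runx3Δ samples, where 13.7% of all genes had each Runx3Δ sample above both WT samples and 13.8% below. A lack of overlap in a gene at the thresholds therefore adds little to its call. Below, "higher" and "lower" give direction only, and genes said to meet the thresholds are those of the study's rule, since no gene passed adjustment over all rows. The counts depended on the WT samples. Without WT replicate 1 there were 82 genes higher and 138 lower, and without WT replicate 2 there were 153 and 442, with 7 rows then passing adjustment. Without Runx3Δ replicate 1 there were 122 and 198. With the litter as a block, so that differences between litters were taken out, there were 106 and 182.

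When each gene was represented by 1 row and p-values were adjusted over 19938 genes, 6 genes (0.0301%) passed, 2 of them up and 4 down. Pla2g4e, a cytosolic phospholipase A2, was at 4.23 and 4.44 in WT and 6.60, 5.84 and 5.52 in Runx3Δ. Slc4a8, a sodium-driven bicarbonate exchanger, was at 5.91 and 5.97 in WT and 6.94, 7.19 and 6.80 in Runx3Δ. Both were higher in all Runx3Δ samples, by 1.65 ± 0.25 and 1.03 ± 0.15 (log2 difference ± SE). Ptger2, a receptor for prostaglandin E2, was at 6.53 and 6.56 in WT and 5.03, 5.46 and 5.14 in Runx3Δ. Cd209c, a C-type lectin of the DC-SIGN family, was at 7.94 and 7.86 in WT and 6.35, 6.85 and 6.64 in Runx3Δ. The calpain Capn5 was at 7.17 and 7.09 in WT and 6.06, 6.34 and 6.40 in Runx3Δ. Lrrc1, a leucine-rich repeat protein, was at 6.46 and 6.42 in WT and 5.74, 5.68 and 5.57 in Runx3Δ. These 4 were lower in every Runx3Δ sample, with differences of -1.33, -1.29, -0.86 and -0.77. Their p-values adjusted over genes by limma were 0.0443 for Slc4a8, Cd209c and Pla2g4e and 0.0495 for the other three, while over all rows they were 0.182 to 0.187.

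Runx3 itself was not lower in the array's measure. Its row was at 10.11 and 9.99 in WT and 10.14, 10.01 and 9.97 in Runx3Δ. The deletion removes a single exon of the Runt domain. Which exons the probes of this row cover was not analysed here, so its level is no check of the deletion. Runx1, the family member that shares its DNA motif, was at 10.999 and 10.71 in WT and 10.89, 10.75 and 10.91 in Runx3Δ. Cbfb, the DNA-binding partner, was at 8.76 and 8.54 in WT and 8.53, 8.53 and 8.69 in Runx3Δ. Runx2 had no row of its own. None of the 9 measured genes of the family and its cofactors met the thresholds. The largest difference among them was that of the corepressor Cbfa2t3, at 9.02 and 8.66 in WT and 8.15, 8.31 and 8.44 in Runx3Δ.

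**Figure D2:**
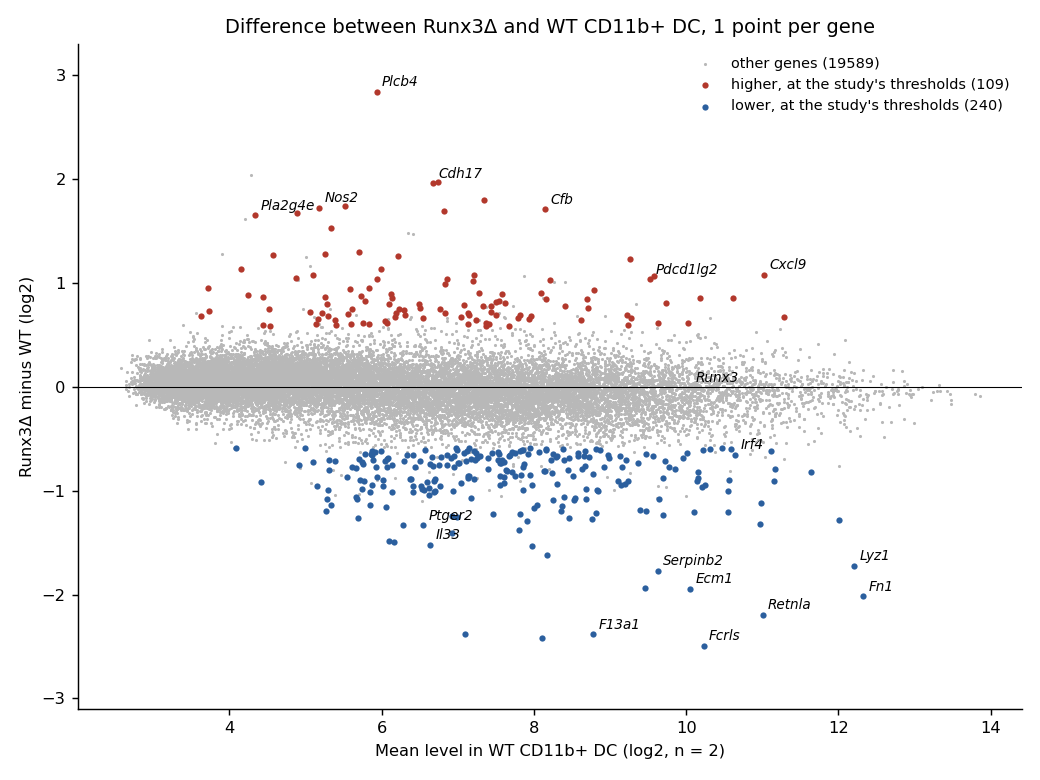
Difference between Runx3Δ and WT CD11b+ DC (log2) against the mean WT level (log2) for 19938 genes, with the 109 genes higher and 240 lower at the study's thresholds in colour and the remaining genes in grey. The points farthest from 0 were Plcb4 at 2.84 and Fcrls at -2.49, and Runx3 lay at -0.01.

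Among the genes with the largest increases were several of host defence and nitric oxide metabolism. Nos2, the inducible nitric oxide synthase, was at 4.94 and 5.42 in WT and 6.05, 6.79 and 7.88 in Runx3Δ. Slc7a2, which imports the arginine that Nos2 consumes, was at 5.51 and 5.54 in WT and 6.33, 6.92 and 8.53 in Runx3Δ. For both, the 3 Runx3Δ samples were above WT but widely spread, with replicate 3 the highest. Cfb, the complement factor B protease, was at 7.78 and 8.50 in WT and 9.73, 9.60 and 10.21 in Runx3Δ. Here the Runx3Δ samples lay closer to each other (1.71 ± 0.44 (SE), adjusted p = 0.415). Ly6i, a surface protein of the Ly6 family whose close relatives may share probes, was at 7.12 and 7.56 in WT and 8.91, 8.79 and 9.72 in Runx3Δ. These 4 genes were 3.26- to 3.48-fold higher, yet their adjusted p-values by limma lay between 0.415 and 0.644.

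Signaling and lipid genes held the largest increase of all named genes. Plcb4, a phospholipase C that acts below G protein-coupled receptors, was at 6.15 and 5.72 in WT and 9.04, 8.61 and 8.67 in Runx3Δ, or 7.16-fold higher (2.84 ± 0.70 (SE), adjusted p = 0.382). Prrg4, a membrane protein with a vitamin K-dependent Gla domain, was at 6.23 and 7.26 in WT and 9.22, 8.68 and 8.25 in Runx3Δ. Insl6, an insulin-like peptide, was at 5.75 and 6.69 in WT and 7.78, 7.42 and 7.23 in Runx3Δ. Pla2g4e, named above, was 3.15-fold higher. The chemokine receptor of neutrophils Cxcr2 was at 4.66 and 4.50 in WT and 7.05, 5.58 and 4.91 in Runx3Δ, a difference carried mainly by replicate 1. Cxcl13, the chemokine that draws B cells into follicles, was at 5.74 and 5.66 in WT and 7.60, 6.96 and 6.42 in Runx3Δ.

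The other large increases were in 5 genes, of which Cdh17 and Car1 stood on the list of epithelial markers. Cdh17, an intestinal cadherin, was at 6.35 and 7.001 in WT and 8.86, 8.69 and 8.34 in Runx3Δ, with no overlap (1.96 ± 0.36 (SE), adjusted p = 0.252). Car1, the carbonic anhydrase of colonic surface epithelium, was at 6.69 and 6.95 in WT and 8.86, 7.52 and 9.13 in Runx3Δ. Lypd8, which keeps flagellated bacteria off the colonic epithelium, was at 4.69 and 5.08 in WT and 6.92, 5.37 and 7.38 in Runx3Δ. The mucosal scavenger protein Dmbt1 was at 5.33 and 5.34 in WT and 7.15, 6.21 and 7.21 in Runx3Δ. Clca3b, of the chloride channel regulator family, was at 5.23 and 5.29 in WT and 6.98, 5.90 and 6.72 in Runx3Δ. In Car1, Lypd8, Dmbt1 and Clca3b the lowest Runx3Δ sample was replicate 2, which also had the lowest mean of the 14 epithelial markers not at the thresholds, at 5.10 against 5.35 and 5.49. Its part in the result was not tested. Cdh17 did not follow that order.

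**Figure D3:**
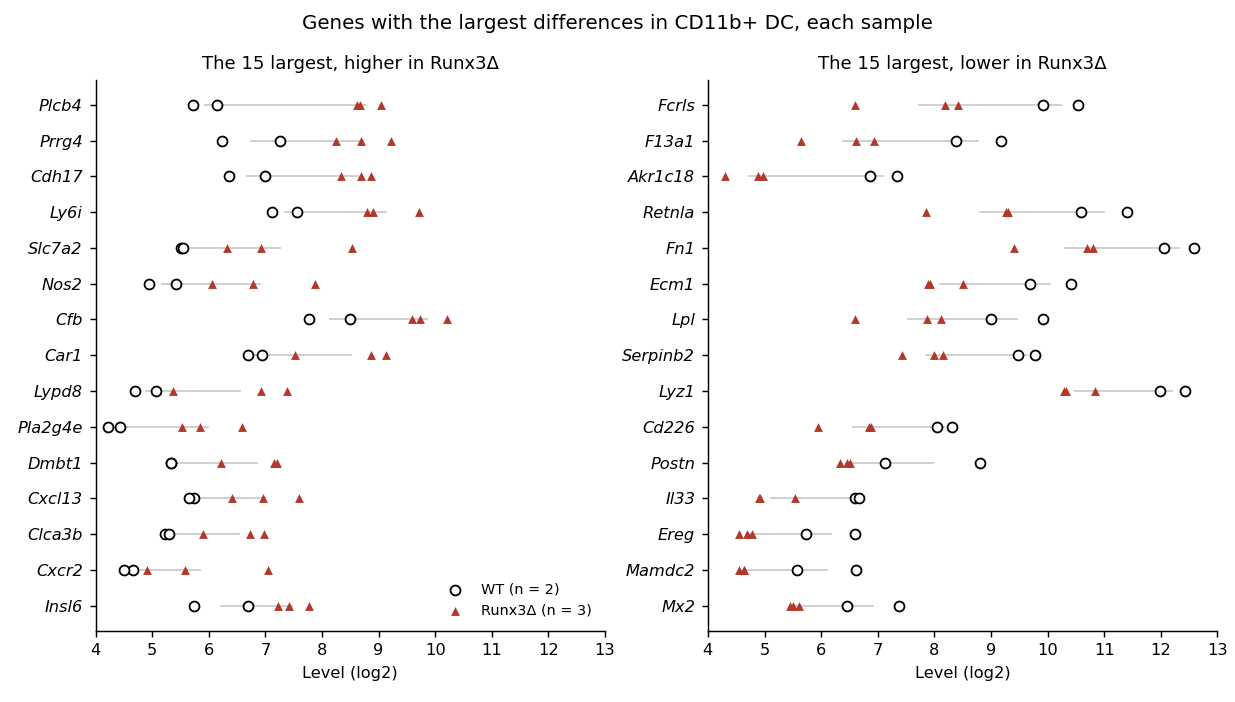
Log2 level in each WT sample (open circles) and Runx3Δ sample (triangles) of CD11b+ DC for the 15 largest increases (left) and decreases (right) of genes that met the study's thresholds with WT and Runx3Δ apart; grey lines join the group means. Plcb4 and Fcrls show the widest gaps, while Slc7a2, Nos2 and Cxcr2 show wide spread among the Runx3Δ samples.

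The largest decrease was that of a macrophage marker, and several other large ones were in genes of secreted proteins. Fcrls, a scavenger receptor related to Fc receptors and typical of tissue macrophages, was at 10.54 and 9.92 in WT and 6.60, 8.42 and 8.19 in Runx3Δ, or 5.63-fold lower (-2.49 ± 0.49 (SE), adjusted p = 0.265). Retnla, a secreted product of alternatively activated macrophages, was at 11.41 and 10.60 in WT and 7.85, 9.30 and 9.26 in Runx3Δ. The fibronectin gene Fn1 was at 12.59 and 12.05 in WT and 9.41, 10.69 and 10.80 in Runx3Δ. Lpl, the lipase that releases fatty acids from lipoproteins, was at 9.92 and 9.005 in WT and 6.60, 8.12 and 7.87 in Runx3Δ. In all 4, Runx3Δ replicate 1 was the lowest sample and both WT samples were above all Runx3Δ samples. Lyz1, a lysozyme whose close copy Lyz2 may share its probes, was at 12.42 and 11.99 in WT and 10.32, 10.83 and 10.29 in Runx3Δ. Ecm1, an extracellular matrix glycoprotein, was at 10.41 and 9.69 in WT and 7.92, 7.89 and 8.51 in Runx3Δ, with the Runx3Δ samples close together (-1.94 ± 0.36 (SE), adjusted p = 0.252).

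Matrix genes also known from stroma were lower, and here WT replicate 1 was far above WT replicate 2. Postn, which encodes periostin, was at 8.81 and 7.13 in WT and 6.50, 6.34 and 6.45 in Runx3Δ. Mamdc2, a proteoglycan, was at 6.62 and 5.58 in WT and 4.64, 4.56 and 4.64 in Runx3Δ. The same sample had the highest mean of the 13 stromal markers not at the thresholds, at 5.99 against 5.61 in WT replicate 2. Its part in the result was not tested.

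Further large decreases were in genes of steroid metabolism, adhesion and growth factor signaling. Akr1c18, which inactivates progesterone, was at 7.34 and 6.86 in WT and 4.30, 4.98 and 4.89 in Runx3Δ. Cd226, an adhesion receptor that binds nectin-like ligands, was at 8.31 and 8.04 in WT and 5.95, 6.84 and 6.88 in Runx3Δ. Ereg, which encodes the EGF receptor ligand epiregulin, was at 6.59 and 5.74 in WT and 4.78, 4.54 and 4.69 in Runx3Δ. F13a1, Serpinb2, Il33 and Mx2, which complete the 15 largest decreases, are described with their pathways.

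Since Runx3 binds DNA, the promoters of these genes were searched for the 6 letters TGTGGT, the core recognised by RUNX proteins, or ACCACA on the other strand, in the RefSeq window of 250 bases before to 50 after each gene start (GRCm38.p6). At least 1 match stood in 16.4% of the promoters of the 15614 measured genes with such a window. It stood in 23 of 78 genes higher at the thresholds (29.5%) and in 34 of 172 lower (19.8%). Of the 15 largest increases 7 had a window and 0 of these held a match, and of the 15 largest decreases 2 of 9 did (22.2%). Among the named genes at the thresholds 9 had a match. How many of the named genes had a window was not counted, so the 9 cannot be set beside the 16.4%. Stretches around the match are shown for 5 of the 9, each of 30 bases, 5′ to 3′ on the gene's strand, with the matches in capitals. Cxcl3, Ltb4r1, Il18rap and Cd300lf also had a match and are not shown, and the promoter of Ltb4r1 held 2. Fcrls, the largest decrease, was the only gene of the 5 with 2 matches, 1 on each strand, within chr3:87263536-87263565 on the minus strand. Retnla had its match within chr16:48842418-48842447 on the plus strand, Cxcl9 within chr5:92328168-92328197 on the minus strand, Il12a within chr3:68691286-68691315 on the plus strand and Pdcd1lg2 within chr19:29410908-29410937 on the plus strand. A match is a description of letters and not a site of binding.
Fcrls: ACCACAgtgttctatcccagatcTGTGGTc
Retnla: caagtctcttgaACCACAcctcttctactt
Cxcl9: ggacgatcaattTGTGGTtagtttagttct
Il12a: tttcgctctgagTGTGGTgggcggtgggac
Pdcd1lg2: tcaaggatcgtgACCACAtcatttttgttc

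Interferon-γ target genes were higher as a group. Interferon-γ induces guanylate-binding proteins, immunity-related GTPases, chemokines and the antigen-processing machinery. Of 31 genes listed, 21 had a row of their own, and 7 of 21 met the thresholds, all higher, where 0.547% of all genes did. The median difference of the list was 0.53, against 0.01 over all genes, and in 15 of 21 each Runx3Δ sample was above both WT samples. Cxcl9, the chemokine that attracts Cxcr3+ T cells, was at 10.73 and 11.33 in WT and 12.03, 12.06 and 12.22 in Runx3Δ. The transcription factor Batf2 was at 7.04 and 7.37 in WT and 7.98, 8.34 and 8.37 in Runx3Δ. Ido1, which breaks down tryptophan, was at 5.42 and 6.04 in WT and 6.96, 6.65 and 6.20 in Runx3Δ. Nlrc5, the transactivator of MHC class I genes, was at 9.15 and 9.29 in WT and 10.08, 9.75 and 9.92 in Runx3Δ, with close replicates (0.69 ± 0.14 (SE), adjusted p = 0.265). These are values of the highest of its 19 rows. Nlrc5 did not meet the thresholds when the rows of each gene were averaged, which left 6 of the list higher. The conjugating enzyme Ube2l6 and the GTPases Irgm1 and Iigp1 completed the 7, with differences of 0.66, 0.78 and 0.74. Cxcl10, another target, overlapped at 11.48 and 11.72 in WT and 11.38, 11.58 and 11.75 in Runx3Δ. The median was 0.37 without WT replicate 1 and 0.45 without Runx3Δ replicate 3, and without WT replicate 1 the counts higher and lower were 3 and 0, without WT replicate 2 they were 8 and 0, without Runx3Δ replicates 1, 2 and 3 they were 8 and 0, then 5 and 0, then 4 and 0, and with the litter as a block they were 8 and 0. The mean of the T, NK and innate lymphoid markers, cells that make interferon-γ, was 5.73 and 5.71 in WT and 5.85, 5.89 and 5.86 in Runx3Δ.

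The MHC class I pathway was higher by a small amount in many genes. Of 16 measured members 15 were above 0, where 52.8% of all genes were, with a median of 0.35. In 11 of 16 each Runx3Δ sample was above both WT samples, where 13.7% of all genes were. Only Nlrc5 met the thresholds, where 0.547% of all genes were higher at them. When the rows of each gene were averaged, 0 members did. Tap1, a chain of the peptide transporter, was at 10.15 and 10.22 in WT and 10.57, 10.71 and 10.67 in Runx3Δ. The immunoproteasome subunit Psmb9 was at 9.36 and 9.49 in WT and 9.79, 9.95 and 10.11 in Runx3Δ. Both had close replicates and no overlap. B2m, the invariant light chain, was at 12.86 and 12.93 in WT and 12.93, 12.94 and 12.88 in Runx3Δ. The MHC class II pathway, in contrast, had a median of -0.06 over 14 genes with 0 at the thresholds. Its regulator Ciita overlapped at 9.68 and 9.31 in WT and 9.20, 8.98 and 9.37 in Runx3Δ.

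Type I interferon genes went the other way in part. Of 32 measured, 5 were lower and 1 higher at the thresholds, where 1.20% and 0.547% of all genes were, with a median of -0.10. Ifnb1, the cytokine itself, was at 5.79 and 5.69 in WT and 4.86, 4.38 and 5.03 in Runx3Δ. The RNA sensor Ifih1 was at 9.99 and 10.33 in WT and 9.31, 9.28 and 9.44 in Runx3Δ. In both, all Runx3Δ samples were below WT. Mx2, named for the antiviral Mx GTPases but annotated as a transcribed pseudogene, was at 6.46 and 7.38 in WT and 5.60, 5.45 and 5.50 in Runx3Δ. Ifit1, which binds viral RNA, was at 8.97 and 9.81 in WT and 7.86, 8.46 and 8.30 in Runx3Δ. The antiviral regulator Oasl1 differed by -0.91. In Mx2 and Ifit1, WT replicate 2 was well above WT replicate 1. For the list, without WT replicate 1 the counts higher and lower were 0 and 5, without WT replicate 2 they were 4 and 1, without Runx3Δ replicates 1, 2 and 3 they were 2 and 4, then 0 and 4, then 1 and 5, and with the litter as a block they were 2 and 6, so that its direction turned without WT replicate 2. Zbp1, a nucleic acid sensor induced by both types of interferon, was higher at 7.75 and 8.12 in WT and 8.33, 8.78 and 8.66 in Runx3Δ.

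Cytokines and inflammatory enzymes split between the directions, 5 higher and 3 lower of 26 measured, where 0.547% and 1.20% of all genes were. Il12a, the p35 subunit of IL-12, was at 4.79 and 4.96 in WT and 5.92, 5.69 and 6.17 in Runx3Δ, with no overlap but at a low level. The cytokine Mif was at 10.01 and 10.05 in WT and 10.50, 10.58 and 10.85 in Runx3Δ. The growth factor Hbegf was at 7.31 and 6.96 in WT and 7.72, 7.76 and 7.73 in Runx3Δ. Nos2 and Cfb, given above, were the other two. Il6 was at 10.02 and 10.30 in WT and 9.02, 9.38 and 9.44 in Runx3Δ. Tnf was at 10.40 and 9.82 in WT and 8.14, 8.98 and 9.59 in Runx3Δ. Both were lower in each Runx3Δ sample, with Ereg as the third gene, and Tnf varied over the Runx3Δ samples. Il12b, the subunit shared by IL-12 and IL-23, overlapped at 8.59 and 9.25 in WT and 8.77, 8.56 and 9.30 in Runx3Δ. In this list, without WT replicate 1 the counts higher and lower were 3 and 2, without WT replicate 2 they were 4 and 2, without Runx3Δ replicates 1, 2 and 3 they were 4 and 2, then 4 and 3, then 3 and 4, and with the litter as a block they were 4 and 3.

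Of 30 chemokines measured, 3 were higher and 6 lower, against 0.547% and 1.20% of all genes. Next to Cxcl9 and Cxcl13, the eosinophil chemokine Ccl24 was higher at 6.94 and 6.78 in WT and 7.28, 7.96 and 8.46 in Runx3Δ. Among the lower ones, Ccl6 was at 11.21 and 10.73 in WT and 8.97, 9.96 and 10.03 in Runx3Δ. Ccl9 was at 11.17 and 10.79 in WT and 9.31, 10.03 and 10.24 in Runx3Δ. The neutrophil chemokine Cxcl3 was at 8.36 and 8.14 in WT and 6.47, 7.45 and 7.56 in Runx3Δ. In these 3 the lowest sample was again Runx3Δ replicate 1. Ccl4 was at 8.51 and 8.56 in WT and 7.19, 7.16 and 8.03 in Runx3Δ, and Ccl3 and Cxcl2 differed by -0.82 and -0.62. For chemokines, without WT replicate 1 the counts higher and lower were 1 and 4, without WT replicate 2 they were 2 and 8, without Runx3Δ replicates 1, 2 and 3 they were 2 and 4, then 2 and 5, then 3 and 6, and with the litter as a block they were 4 and 6. Among the 21 chemokine receptors measured only Cxcr2 met the thresholds, and it met them in 12 of 19 alternatives, not without Runx3Δ replicate 1 or either WT replicate, nor by the methods' ANOVA. Ccr7, which guides DC to lymph nodes, was at 11.91 and 12.27 in WT and 12.76, 12.41 and 12.45 in Runx3Δ, higher in all 3 Runx3Δ samples without meeting the thresholds.

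Genes of tolerance and Treg induction counted 2 higher and 6 lower of 34, beside 0.547% and 1.20% over all genes, with a median of -0.08. Il33, an alarmin of the IL-1 family that acts on Treg, was at 6.60 and 6.68 in WT and 4.90, 5.54 and 4.93 in Runx3Δ. It was 2.87-fold lower with no overlap (-1.52 ± 0.35 (SE), adjusted p = 0.366). Il10 was at 8.44 and 8.61 in WT and 6.24, 7.67 and 8.38 in Runx3Δ, a difference that rested on Runx3Δ replicates 1 and 2. Pros1, a bridging ligand of TAM receptors in the removal of dying cells, was at 7.72 and 7.19 in WT and 5.80, 6.44 and 6.48 in Runx3Δ. Icosl, the ligand of the T cell costimulator ICOS, was at 10.43 and 10.21 in WT and 9.45, 9.95 and 9.76 in Runx3Δ. Il6 and Ifnb1 also stood on this list. The higher members were Ido1 and Pdcd1lg2. Pdcd1lg2, the gene of PD-L2, which inhibits T cells through PD-1, was at 9.36 and 9.69 in WT and 10.30, 10.67 and 10.71 in Runx3Δ. Aldh1a2, the retinaldehyde dehydrogenase that lets gut DC make retinoic acid, was at 9.27 and 8.83 in WT and 7.70, 8.30 and 8.16 in Runx3Δ, lower in each Runx3Δ sample (-0.998 ± 0.49 (SE), adjusted p = 0.764) but short of the thresholds. Rdh10, which makes retinaldehyde from retinol, was at 7.36 and 7.07 in WT and 6.65, 6.69 and 6.69 in Runx3Δ. Itgb8, an activator of TGF-β, differed by -0.34. Among the 34 genes, without WT replicate 1 the counts higher and lower were 1 and 3, without WT replicate 2 they were 3 and 6, without Runx3Δ replicates 1, 2 and 3 they were 3 and 4, then 2 and 4, then 2 and 7, and with the litter as a block they were 2 and 5.

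Maturation genes showed no common direction, with 3 higher and 2 lower of 34 and a median of -0.03. Over all genes 0.547% were higher and 1.20% lower. Besides Pdcd1lg2, the actin bundler of mature DC Fscn1 was at 8.59 and 8.98 in WT and 10.14, 9.54 and 9.46 in Runx3Δ. The serpin Serpinb6b was at 9.85 and 10.50 in WT and 10.73, 11.26 and 11.09 in Runx3Δ. Both were higher in each Runx3Δ sample. Tnfsf9, the ligand of 4-1BB, was lower at 9.32 and 9.42 in WT and 8.40, 8.49 and 9.04 in Runx3Δ, as was Icosl. The costimulatory genes Cd40, Cd80 and Cd86 differed by 0.02, -0.12 and -0.04. Here without WT replicate 1 the counts higher and lower were 1 and 2, without WT replicate 2 they were 2 and 1, without Runx3Δ replicates 1, 2 and 3 they were 2 and 0, then 1 and 2, then 2 and 2, and with the litter as a block they were 2 and 2.

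Among 30 transcription factors of DC, 1 was higher and 2 were lower at the thresholds, where 0.547% and 1.20% of all genes were. Irf4, required for cDC2, was at 10.79 and 10.49 in WT and 10.002, 9.90 and 10.04 in Runx3Δ, lower in each Runx3Δ sample. Tbx21, the T-box factor T-bet, was higher at 6.10 and 6.26 in WT and 6.68, 6.82 and 7.06 in Runx3Δ. The C/EBP family member Cebpd was at 6.54 and 6.28 in WT and 5.85, 5.51 and 5.93 in Runx3Δ. In each of the 3 the groups did not overlap. Irf8, the factor of cDC1 and plasmacytoid DC, was at 9.38 and 9.18 in WT and 9.997, 9.49 and 9.91 in Runx3Δ. Batf, an AP-1 factor that acts with Irf4, was at 8.28 and 8.34 in WT and 7.65, 7.92 and 7.95 in Runx3Δ. Neither reached a 1.5-fold difference. Zbtb46, the factor that marks conventional DC, was at 7.05 and 7.33 in WT and 6.97, 6.88 and 6.90 in Runx3Δ. In this list, without WT replicate 1 the counts higher and lower were 2 and 0, without WT replicate 2 they were 1 and 3, without Runx3Δ replicates 1, 2 and 3 they were 1 and 2, then 2 and 1, then 0 and 2, and with the litter as a block they were 0 and 0, so that the block ended each of these calls.

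On the surface of cDC2, 1 of 33 markers was higher and 3 were lower, where 0.547% and 1.20% of all genes were. Esam, an adhesion molecule of the Notch2-dependent cDC2 subset, was at 5.39 and 5.38 in WT and 6.17, 6.15 and 5.76 in Runx3Δ. Cd24a, high on CD103+CD11b+ DC, was at 11.46 and 10.86 in WT and 10.49, 10.34 and 10.28 in Runx3Δ. The inhibitory receptor Cd200r1 was at 6.25 and 5.43 in WT and 4.46, 4.76 and 4.88 in Runx3Δ. The groups were apart in these 3. Cd101, an inhibitory surface glycoprotein, was at 8.25 and 8.08 in WT and 7.08, 7.95 and 7.63 in Runx3Δ. Itgae, which encodes CD103, was at 9.88 and 10.07 in WT and 9.48, 9.51 and 9.64 in Runx3Δ, lower in each Runx3Δ sample (difference -0.43 ± 0.19, SE) but not at the thresholds. By flow cytometry the paper found fewer CD103+CD11b+ DC in Runx3Δ mice at the older of the ages it compared, and no such difference at the younger. It also reports lower staining of CD103 and CD24a. The part of such a shift between subsets in Itgae, Cd24a and Irf4 was not tested. Among these surface genes, without WT replicate 1 the counts higher and lower were 1 and 1, without WT replicate 2 they were 2 and 4, without Runx3Δ replicates 1, 2 and 3 they were 0 and 1, then 0 and 2, then 2 and 4, and with the litter as a block they were 4 and 3.

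Eicosanoids are lipid mediators made from arachidonic acid by cyclooxygenases and lipoxygenases. Of 31 of their enzymes and receptors measured, 2 were higher and 5 lower, where 0.547% and 1.20% of all genes were. The median was 0.04. On the side of synthesis Pla2g4e was higher, while 2 lipoxygenases were lower. Alox5, which starts leukotriene synthesis, was at 6.82 and 6.21 in WT and 5.61, 5.59 and 5.48 in Runx3Δ. Alox15 was at 6.44 and 6.32 in WT and 5.33, 5.57 and 5.57 in Runx3Δ. Of the receptors, Ptger2, given above, was lower. The prostacyclin receptor Ptgir was at 6.92 and 6.49 in WT and 5.52, 5.96 and 5.99 in Runx3Δ. The leukotriene B4 receptor Ltb4r1 was at 7.79 and 7.32 in WT and 6.46, 6.87 and 6.76 in Runx3Δ. Ptger3, a second receptor of prostaglandin E2, was higher at 5.28 and 5.15 in WT and 5.87, 6.25 and 5.68 in Runx3Δ. The groups did not overlap in any of these 7 genes, nor in most genes at the thresholds (106 of 109 higher and 231 of 240 lower). For eicosanoid genes, without WT replicate 1 the counts higher and lower were 2 and 3, without WT replicate 2 they were 2 and 4, without Runx3Δ replicates 1, 2 and 3 they were 3 and 4, then 2 and 4, then 2 and 4, and with the litter as a block they were 2 and 4.

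Of the 21 IL-1 family genes measured, 3 were lower, Il33, the shared coreceptor Il1rap and the IL-18 coreceptor Il18rap. Over all genes 1.20% were lower. Il1rap was at 7.76 and 7.62 in WT and 6.88, 7.16 and 7.06 in Runx3Δ, with close replicates (-0.66 ± 0.13 (SE), adjusted p = 0.276). Il18rap was at 7.91 and 8.66 in WT and 7.36, 7.95 and 7.53 in Runx3Δ, where Runx3Δ replicate 2 overlapped with WT. In this family, without WT replicate 1 the counts higher and lower were 0 and 4, without WT replicate 2 they were 0 and 2, without Runx3Δ replicates 1, 2 and 3 they were 0 and 1, then 0 and 4, then 0 and 3, and with the litter as a block they were 0 and 1.

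Of 36 adhesion and cortical cytoskeleton genes, 6 were lower and 2 higher at the thresholds, where lower genes also outnumbered higher ones over the whole array (1.20% against 0.547%). The scaffold and membrane-linker genes Vcl, Lmna, Ahnak, Lima1 and Anxa1 were the lower ones beside the junctional molecule Jam2. Jam2 was at 6.02 and 5.83 in WT and 5.20, 4.92 and 5.34 in Runx3Δ. Vcl, the vinculin of adhesion sites, was at 9.14 and 8.83 in WT and 8.23, 8.42 and 8.26 in Runx3Δ. The nuclear lamin Lmna was at 8.76 and 8.27 in WT and 7.64, 7.67 and 7.65 in Runx3Δ. In each of them all Runx3Δ samples were below WT. Ahnak, a large scaffold protein below the membrane, was at 9.39 and 8.91 in WT and 8.32, 8.18 and 8.12 in Runx3Δ. The actin-binding Lima1 was at 8.41 and 8.21 in WT and 7.09, 7.42 and 7.59 in Runx3Δ. Anxa1, a membrane-binding annexin, was at 10.35 and 10.07 in WT and 8.92, 9.49 and 9.31 in Runx3Δ. The groups were apart in these too. The higher ones were Esam and Vcam1, an integrin ligand. Vcam1 was at 8.74 and 8.69 in WT and 9.61, 9.19 and 9.63 in Runx3Δ. F11r, the junctional relative of Jam2, was at 7.55 and 7.57 in WT and 8.09, 8.13 and 8.15 in Runx3Δ, higher in each Runx3Δ sample and just short of the thresholds. For adhesion genes, without WT replicate 1 the counts higher and lower were 2 and 2, without WT replicate 2 they were 2 and 8, without Runx3Δ replicates 1, 2 and 3 they were 1 and 5, then 1 and 7, then 2 and 8, and with the litter as a block they were 2 and 4.

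Coagulation and fibrinolysis genes had the lowest median of the pathway lists, -0.48, with 6 lower and 1 higher of 18. Over all genes 1.20% were lower and 0.547% higher. F13a1, the factor XIII subunit that crosslinks fibrin, was at 9.17 and 8.38 in WT and 5.65, 6.61 and 6.93 in Runx3Δ, 5.21-fold lower (-2.38 ± 0.56 (SE), adjusted p = 0.366). Serpinb2, an inhibitor of plasminogen activators, was at 9.78 and 9.48 in WT and 7.43, 7.99 and 8.15 in Runx3Δ, with no overlap (-1.77 ± 0.37 (SE), adjusted p = 0.282). The plasminogen activator Plat was at 7.96 and 8.50 in WT and 7.44, 7.45 and 7.68 in Runx3Δ. F2rl2, a protease-activated receptor for thrombin, was at 7.03 and 6.70 in WT and 6.01, 6.34 and 6.25 in Runx3Δ. Pros1 and Fn1, given above, completed the 6. Procr, the endothelial receptor of protein C, was higher instead, at 8.85 and 9.68 in WT and 10.38, 10.20 and 10.90 in Runx3Δ. F13a1 and Fn1 are also monocyte markers, and Fn1 and Serpinb2 are peritoneal macrophage markers. The 12 peritoneal markers had means of 6.84 and 6.53 in WT and 6.33, 6.34 and 6.44 in Runx3Δ. The mean of the other 7, not at the thresholds, overlapped at 5.52 and 5.18 in WT and 5.48, 5.25 and 5.46 in Runx3Δ. Leaving out the called markers narrows the gap by construction. In this list, without WT replicate 1 the counts higher and lower were 0 and 4, without WT replicate 2 they were 1 and 5, without Runx3Δ replicates 1, 2 and 3 they were 1 and 4, then 1 and 6, then 0 and 7, and with the litter as a block they were 0 and 5.

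In pathways tied to cDC2 differentiation 0 or 1 gene per list met the thresholds, shares that cannot be set apart from the 0.547% higher and 1.20% lower over all genes. TGF-β signaling had 1 of 36, the convertase Furin, which processes the TGF-β precursor, and a median of -0.08. Furin was at 10.70 and 10.47 in WT and 9.86, 10.06 and 10.05 in Runx3Δ, lower in each Runx3Δ sample. Tgfb1, the ligand, overlapped at 11.46 and 11.29 in WT and 11.38, 11.43 and 11.47 in Runx3Δ. Of 32 genes of β-catenin and Wnt signaling 0 met the thresholds, and Ctnnb1, which encodes β-catenin, was at 9.79 and 9.78 in WT and 9.82, 9.69 and 9.74 in Runx3Δ. In the Notch pathway 1 of 31 did, Notch1, at 8.56 and 8.05 in WT and 7.67, 7.56 and 7.69 in Runx3Δ. Notch2 was at 10.36 and 9.93 in WT and 9.82, 9.67 and 9.76 in Runx3Δ, lower in each Runx3Δ sample. Among retinoid genes Bco2, a carotenoid-cleaving enzyme, was the only one of 21, at 6.31 and 6.50 in WT and 5.29, 5.66 and 5.41 in Runx3Δ. Toll-like receptors (15 measured), glycolysis and HIF-1 targets (24) and cell cycle genes (24) had 0 at the thresholds in either direction. The glycolysis median was 0.21, and Slc2a1, the glucose transporter, was at 10.24 and 10.25 in WT and 10.40, 10.65 and 11.14 in Runx3Δ. Without WT replicate 1, Furin and Notch1 were no longer at the thresholds, while TGF-β signaling had 2 higher and 0 lower without Runx3Δ replicate 1. Without WT replicate 2 there were 2 higher and 2 lower in TGF-β signaling, 2 lower in Notch and 3 lower among retinoid genes. With the litter as a block Furin was not at the thresholds.

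**Figure D4:**
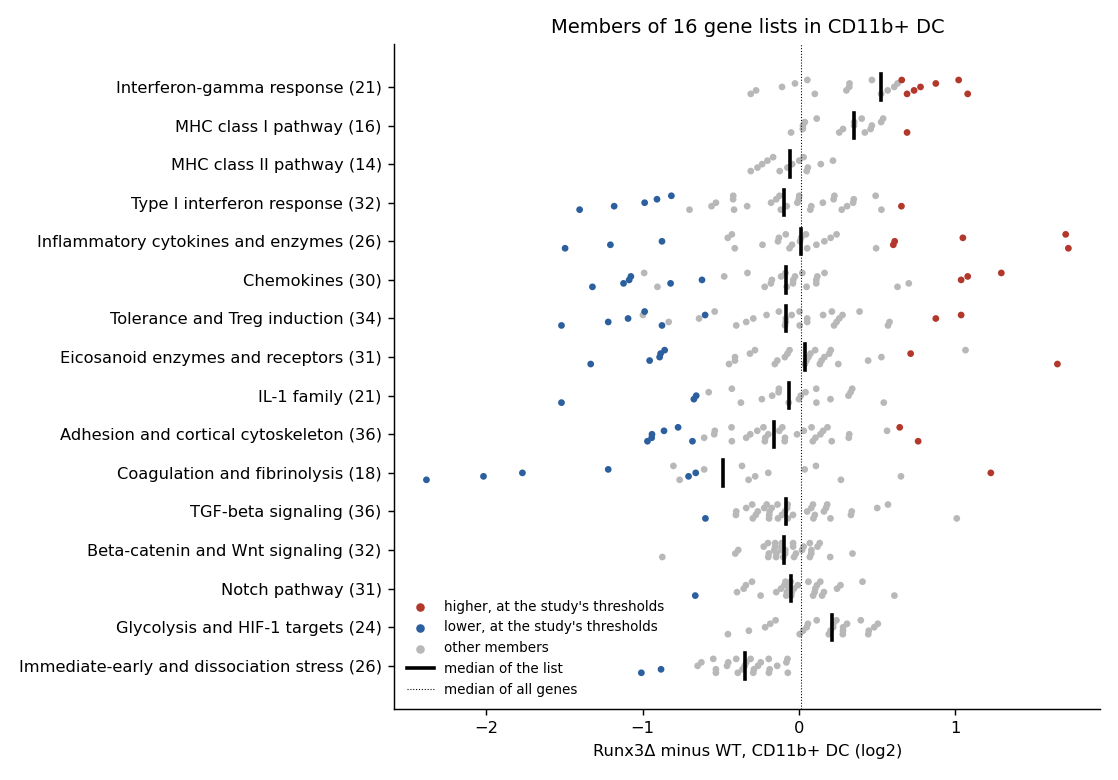
Difference between Runx3Δ and WT CD11b+ DC (log2) of each measured member of 16 gene lists (number measured in brackets), with members at the study's thresholds in colour, each list's median as a bar and the median of all genes as a dotted line. The interferon-γ response lies to the right, with 7 members higher, and coagulation and immediate-early genes to the left.

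Immediate-early genes, which are induced within minutes by growth factors and by tissue dissociation, were lower in Runx3Δ throughout the list. All 26 measured had a difference below 0, with a median of -0.34, and in 17 of 26 each Runx3Δ sample was below both WT samples, where 13.8% of all genes were. Only Egr1 and Ier2 met the thresholds, both lower, where 1.20% of all genes were. Egr1 was at 10.95 and 10.14 in WT and 9.39, 9.44 and 9.78 in Runx3Δ. Ier2 was at 9.84 and 9.56 in WT and 8.36, 8.98 and 9.12 in Runx3Δ. The mean level of the list was 10.99 and 10.78 in WT and 10.4, 10.42 and 10.69 in Runx3Δ. Without WT replicate 1 or Runx3Δ replicate 1 there were 0 members at the thresholds, without Runx3Δ replicate 3 there were 5, and with the litter as a block there was 1. The list's part in the differences of Tnf, Ccl3, Ccl4 and Cxcl2, which dissociation also induces, was not tested.

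Of 20 genes listed from those that the study names for CD11b+ DC, 16 had a row of their own, and 15 of them met the thresholds, 7 higher and 8 lower. Aldh1a2, given above, is also named by the study as down-regulated in these cells. It was left off this list and did not meet the thresholds, so the list is not the study's full set of named genes. Having been chosen from these samples, the list is no independent evidence of its direction. Of those not yet given, the calcineurin inhibitor Rcan1 was at 8.66 and 8.70 in WT and 7.70, 7.34 and 8.05 in Runx3Δ. The myeloid receptor Cd300lf was at 7.001 and 7.28 in WT and 7.66, 7.97 and 7.92 in Runx3Δ. Slc22a21, a carnitine transporter, was at 6.46 and 6.20 in WT and 5.60, 5.73 and 5.71 in Runx3Δ. The groups were apart in all 3. Gpx2, a glutathione peroxidase, was the measured gene of the list that did not meet the thresholds, at 5.29 and 5.06 in WT and 5.71, 5.81 and 5.83 in Runx3Δ. For these genes, without WT replicate 1 the counts higher and lower were 4 and 5, without WT replicate 2 they were 6 and 5, without Runx3Δ replicates 1, 2 and 3 they were 7 and 8, then 6 and 7, then 5 and 8, and with the litter as a block they were 5 and 6.

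Whether a difference was particular to CD11b+ DC was tested as the interaction of genotype with cell type. By limma, 0 of 35556 rows (0%) passed adjustment, the smallest adjusted p was 0.83, and 1391 rows had an unadjusted p under 0.05, so no gene can be called particular to CD11b+ DC. In RM, 97 genes were higher (0.487%) and 171 lower (0.858%) at the same thresholds. Of these, 27 were also higher in CD11b+ DC, 24.8% of the CD11b+ DC genes and 27.8% of the RM genes, and 36 were lower in both, 15% and 21.1%. Only Dok2, a docking protein below tyrosine kinases, met the thresholds in opposite directions, at -0.80 in CD11b+ DC and 0.64 in RM. The shared genes included Nos2 (1.72 in CD11b+ DC and 2.70 in RM), Slc7a2 (1.74 and 2.49), Cfb (1.71 and 1.42) and Cxcl9 (1.08 and 1.27). Litter numbers are shared between the samples of both cell types.

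Other large differences of CD11b+ DC had small values in RM. Akr1c18 differed by -2.38 in CD11b+ DC and 0.04 in RM, F13a1 by -2.38 and -0.45, and Pla2g4e by 1.65 and 0.21. The difference of differences was -2.41 ± 0.70 (SE) for Akr1c18, 1.44 ± 0.32 for Pla2g4e and -1.45 ± 0.25 for Cd209c, each with an adjusted p of 0.83 or more. In RM, Akr1c18 had means of 4.880 in WT and 4.915 in Runx3Δ, and Cd209c of 4.803 and 4.964. These lie under the filter level of 5, so there was little room for a fall of either gene in RM. F11r (0.56 and -0.30) and Jam2 (-0.77 and 0.16) had opposite signs in the 2 cell types. Pdcd1lg2 was higher in both, by 1.04 in CD11b+ DC and 2.18 in RM.

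**Figure D5:**
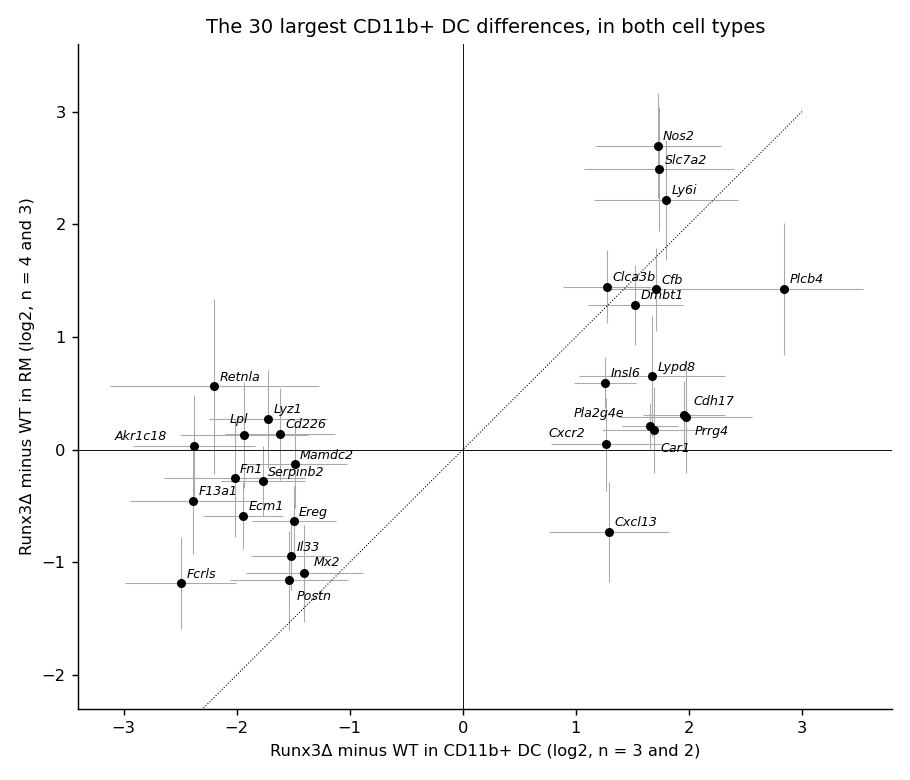
Runx3Δ minus WT (log2) in CD11b+ DC against the same in RM for the 30 genes with the largest CD11b+ DC differences, with bars for 1 SE and a dotted line of equality. The genes were chosen by their CD11b+ DC values and not by those in RM. Nos2, Slc7a2 and Ly6i were higher in RM than in CD11b+ DC, while Akr1c18, Retnla and Lyz1 were at or above 0 in RM. The mean level of Akr1c18 in WT RM was low, at 4.880.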

How the data were processed

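RNA of sorted colonic cells was hybridised to Affymetrix mouse arrays by the authors, who normalized the scans by RMA with GC correction and deposited log2 levels per transcript cluster. These log2 values were used as deposited, with medians of 5.37 to 5.46 in CD11b+ DC. Precision is limited by the number of arrays, since 2 WT and 3 Runx3Δ pools were measured and p-values describe the spread between these pools.

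Probe names came from the platform annotation. Of 35556 rows, 21789 had 1 gene symbol, 1621 several and 12146 none, and no gene was named from rows of the last kinds. A gene with several rows was represented by the one with the highest mean, giving 19938 genes. All columns belonged to a sample.

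The 4 groups of 12 samples were fitted together with limma 3.58.1 (lmFit and eBayes, R 4.3.3) without a litter term, with Runx3Δ minus WT as the contrast and Benjamini-Hochberg adjustment over all rows. Results at the study's thresholds (1.5-fold, unadjusted p of at most 0.05) are counts without adjustment. The fit was tested on simulated data. Tables and plots were made with Python 3.11.15, pandas 2.3.3 and matplotlib 3.10.9.

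Members and lists were chosen with earlier results of these data known. Of 753 distinct genes in 39 lists, 25 of them pathways or gene groups and 14 of them cell type markers, 698 had a row of their own. Genes were named by rule: Runx1, Runx2, Runx3 and Cbfb, genes passing adjustment, the 15 largest differences per direction at the thresholds without overlap (leaving out predicted genes, receptor and immunoglobulin families, histones and small RNAs), the members of each list with the smallest p (at most 4), the study's own list, the gate markers, and genes whose difference between the cell types passed adjustment. The other genes given, among them the calls with 1 row per gene and further list members, were chosen after their values were seen.

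The labels give litter numbers, and only litter 3 is shared by the genotypes among CD11b+ DC. The deviations of that pair correlated at 0.0774. Between the groups of both cell types, pairs of the same litter correlated at -0.0412 to 0.3582 and pairs of different litters at -0.257 to 0.2027. The highest value was that of Runx3Δ replicate 1 of RM with Runx3Δ replicate 1 of CD11b+ DC, both of litter 1. The correlation within litters estimated over all rows was 0.0478 (statmod 1.5.0), and the main fit kept no block. Alternatives were the litter as a block, CD11b+ DC alone, the methods' ANOVA, a variance trend, array weights, a level filter of 5, quantile and median scaling, other sets of rows, and leaving out each sample. With 1 WT array left, its spread was assumed to be that of the other groups.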

Additional observations from a re-analysis of the deposited data

How the results depend on the processing

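Among CD11b+ DC rows, 0 passed adjustment by limma in each alternative that tested all rows, including the litter as a replicate block and the methods' ANOVA, but 6 passed with 1 row per gene, 6 with the mean of a gene's rows, and 0 to 7 with a sample left out, the 7 without WT replicate 2. The 758 rows at the study's thresholds became 432 under the methods' ANOVA on CD11b+ DC alone, 380 with 1 row per gene, 375 with the mean of rows, 464 without the leading unnamed rows and 415 among rows with 1 symbol, where fewer rows were tested in the last 4. With a sample left out they were 618 to 1231. The 109 genes higher and 240 lower became 67 and 134 under that ANOVA, and 82 to 153 and 138 to 442 with a sample left out, lowest without WT replicate 1 and highest without WT replicate 2. With the replicate block for litter there were 696 rows, with 106 genes higher and 182 lower, and the median of the 18 epithelial markers was 0.04 in place of 0.34. Of 83 named genes at the thresholds, 67 kept them with the block, 55 under the ANOVA on CD11b+ DC alone, 46 without WT replicate 1 and 27 in every one of the 19 alternatives. None of the 83 changed sign at the thresholds. The difference between CD11b+ DC and RM had 0 rows past adjustment in every alternative run. The causes were not tested. With 2 WT arrays, differences of low and variable genes could not be resolved.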
